A study of Homo sapiens with 4 samples.

Results

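Open chromatin was examined around POU5F1 (which encodes OCT4), SOX2 and NANOG, the core transcription factors of pluripotent cells, in H1 human embryonic stem cells at the start of mesendoderm differentiation. The regions described are those with an ATAC-seq peak within 50 kb of any of the 3 genes, on the hg19 positions chr6:31132114-31138451 for POU5F1, chr3:181429712-181432224 for SOX2 and chr12:7941995-7948655 for NANOG. Of 87966 regions in the series, 34 met this rule, 15 at POU5F1, 15 at SOX2 and 4 at NANOG. ATAC-seq uses a transposase that inserts sequencing adapters where DNA is accessible, so a peak marks open chromatin and not transcription.

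H1 is an established embryonic stem cell line, here grown without feeder cells on Matrigel. The series has 1 library per group. One group was given Activin A at 25 ng/ml for 6 h, one Wnt3a at 25 ng/ml for 6 h, and one both ligands at 25 ng/ml each for 6 h. The control stayed in the N2B27 growth medium with basic fibroblast growth factor at 20 ng/ml, and no harvest time is stated for it. For the treatments the medium was changed to one with B27, and the protocol lists no N2 and no fibroblast growth factor in it. The effects of ligand and medium therefore cannot be told apart in any comparison with control.

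OCT4, SOX2 and NANOG bind one another's regulatory DNA and their own, and OCT4 and SOX2 often bind side by side at a composite element. Together they hold the pluripotent state, and their levels shift as cells leave it: in human cells SOX2 falls early on the way to mesendoderm, while NANOG, a known target of Activin and SMAD2/3 signalling, is held for longer. Wnt3a acts through beta-catenin and the TCF/LEF factors.

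The lists held 75585 peaks after Activin A, 21078 after Wnt3a, 58382 after both ligands and 26223 in control. How deeply each library was sequenced is not given in the sources used here. Each peak carries the authors' own score, a value that from its range appears to be a multiple of the negative log10 of a p-value and that would then grow with depth. A percentile below is the standing of a score within its own list, and percentiles in lists of different length show no change by themselves. For comparisons between lists, scores were therefore also ranked among the 13016 regions that had a peak in all 4 lists, which gives a shared percentile. With no replicates there is no test, and every difference is between single libraries.

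The windows around POU5F1 and SOX2 were densely covered by peaks in each list and held regions near the top of every list. The NANOG window had at most 2 peaks in any list. At POU5F1, peaks covered 11.0% of the 106 kb window after Activin A, 5.15% after Wnt3a, 8.93% after both ligands and 4.71% in control. At SOX2 the covered share of the 103 kb window was 8.05% for Activin A, 3.84% for Wnt3a, 11.5% for both ligands and 3.75% for control. At NANOG it was 0.833% of 107 kb for Activin A, 0.0% for Wnt3a, 0.609% for both ligands and 0.656% for control. Over the whole genome the Activin A list covered 1.99%, the Wnt3a list 0.475%, the combined list 1.64% and the control list 0.644%. The POU5F1 and SOX2 windows were thus above the genome's cover in all 4 lists. The NANOG window was below it in each list except control, where it was about equal. The annotation names 8 neighbours for POU5F1, 1 for SOX2 and 3 for NANOG, and their part in the cover was not tested.

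**Figure D1:**
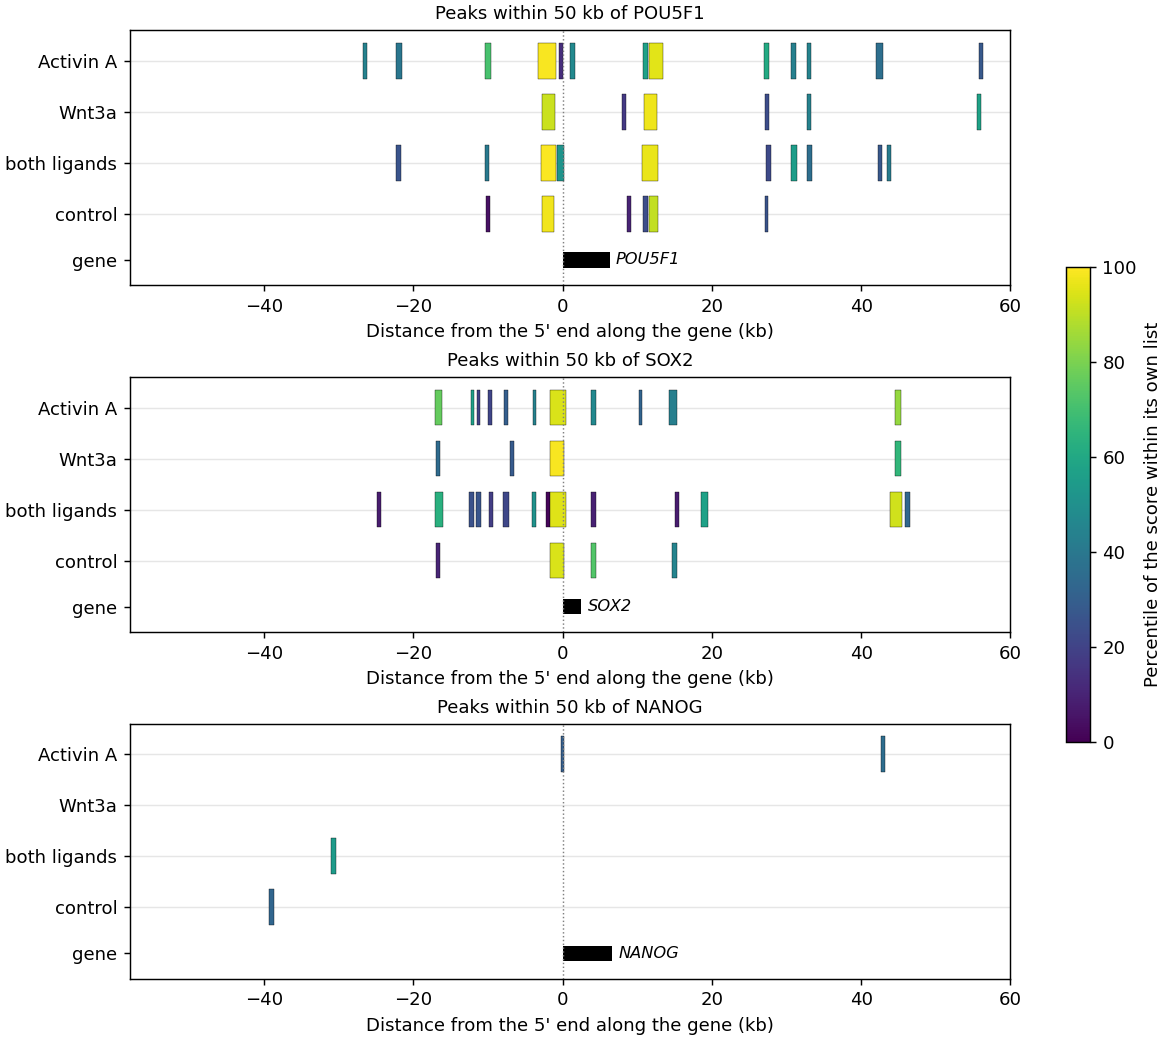
Peaks within 50 kb of each gene, drawn to scale against the distance from the gene's 5' end in kb along the direction of transcription, with 1 row per library and the gene as a black bar; colour gives the percentile of the peak's score within its own list. High-scoring peaks recur just upstream of POU5F1, beyond its 3' end and over the SOX2 start, a peak near the right edge of the SOX2 map is missing from control, and the NANOG map is nearly empty.

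Over the 3 windows, 25 regions had a peak after Activin A, 10 after Wnt3a, 24 after both ligands and 10 in control. Of the 34, 5 (14.7%) were found in all 4 lists, 3 at POU5F1 and 2 at SOX2, beside 14.8% of all regions genome-wide. Another 14 were found in a single list. Activin A only gave 5 (14.7%, against 30.1% genome-wide), and the combined treatment only gave 5 (14.7%, against 12.4%). Wnt3a only gave 2 (5.88%, against 0.933%), and control only gave 2 (5.88%, against 2.55%). After Activin A, 17 of the 25 regions had no control peak, against 70.0% of that list genome-wide, and 2 of the 10 control regions had no Activin A peak, against 11.5%. After Wnt3a, 5 of 10 regions had no control peak (33.1% genome-wide) and 5 of the 10 control regions had no Wnt3a peak (46.5%). After both ligands, 16 of 24 regions had no control peak (62.5%) and 2 of the 10 control regions had none after both ligands (15.2%). On numbers this small the counts against control lay near their background.

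Most of the regions found after a treatment and not in control were weak, as they were genome-wide. Of the 17 after Activin A, 2 scored above the median of the Activin A list, beside 34.0% of all such regions. The number was 2 of 5 after Wnt3a, beside 23.9%, and 6 of 16 with both ligands, beside 31.1%. Compared with Activin A alone, the combined treatment lacked 6 of 25 Activin A regions (39.4% genome-wide), and 5 of its 24 regions had no Activin A peak (21.0%). Compared with Wnt3a alone it lacked 3 of 10 Wnt3a regions (9.27% genome-wide), and 17 of its 24 had no Wnt3a peak (67.9%).

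At the edge of the window, the POU5F1 peak just inside it after Activin A lay 49.5 kb from the gene and scored 74.28, and the first outside lay 53.0 kb away and scored 62.46. Beyond the NANOG window, the Activin A, Wnt3a and combined lists had a peak 64.2, 64.1 and 64.1 kb past the gene, with a score of 112.14 after Activin A, 70.36 after Wnt3a and 119.49 with both ligands. The control list had its first at 94.6 kb with a score of 51.93.

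POU5F1 is transcribed from the minus strand, and its strongest region lay just upstream, at chr6:31139298-31141753, between 847 and 3302 bases before the 5' end. The stretch upstream of this gene is known to hold its proximal and distal enhancers. The best peak there scored 1155.7 after Activin A, 199.49 after Wnt3a, 911.71 after both ligands and 306.8 in control. These were the 742nd of 75585 Activin A peaks, the 1734th of 21078 Wnt3a peaks, the 415th of 58382 combined peaks and the 555th of 26223 control peaks. It was therefore among the strongest peaks of every list, and its standing was lowest after Wnt3a, at percentile 91.8, against 99.0 after Activin A, 99.3 after both ligands and 97.9 in control. Its shared percentile was 94.4 for Activin A, 87.0 for Wnt3a, 96.9 for both ligands and 95.9 for control, a difference from control of -8.87 points for Wnt3a, -1.49 for Activin A and 0.991 for both ligands. Of all shared regions, 34.5% were as far or further down after Wnt3a and 46.7% after Activin A.

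The 5' end of POU5F1 itself showed a weak and less constant peak. The region at chr6:31138332-31139171 had a peak with a score of 62.22 after Activin A (percentile 13.2) and 97.66 after both ligands (percentile 51.9). The Wnt3a and control lists had none, and their nearest peaks were the upstream ones, 1.03 kb away after Wnt3a and 1.14 kb away in control. Within the gene, the only other peak was in the Activin A list, at 908 to 1641 bases from the 5' end, with a score of 102.54.

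The second strong region of the POU5F1 window lay beyond the 3' end, at chr6:31125032-31127802, on the side where the annotation places TCF19, a gene of cell-cycle progression, and then CCHCR1. Which gene it lies at was not computed, as no gene positions of the files' build were used. Its best score was 668.66 after Activin A, 301.11 after Wnt3a, 551.7 after both ligands and 187.48 in control, and its shared percentile was 74.9 for Activin A, 96.1 for Wnt3a, 84.7 for both ligands and 82.2 for control. Wnt3a stood 13.9 points above control here, the opposite direction to the upstream region. Of all shared regions, 28.8% were as far or further up after Wnt3a. The control list had 2 peaks in this region, scoring 187.48 and 58.03, and only the best was ranked. With summed scores Wnt3a differed from control by 5.1 points here and by -11.1 points at the upstream region. The order of the pair within a list does not need lists to be comparable: the upstream region outscored the one beyond the 3' end after Activin A, after both ligands and in control, and the reverse held after Wnt3a alone.

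The remaining POU5F1 regions were weaker. The region at chr6:31110479-31111451 was in all 4 lists with scores of 139.28 after Activin A, 66.89 after Wnt3a, 62.11 after both ligands and 59.2 in control. The region at chr6:31148074-31148920, 9.62 to 10.5 kb upstream, scored 188.07 after Activin A and 79.38 after both ligands, against 51.34 in control, and had no Wnt3a peak. The control value sat just above the lowest score of its list, 50.03. The region at chr6:31105005-31105781 was found after each treatment and not in control, with scores of 97.93 after Activin A, 80.22 after Wnt3a and 74.21 with both ligands. A further region, at chr6:31107106-31107910, was found after Activin A (95.08) and after both ligands (104.98) only. The other 8 regions of this window were in 1 or 2 lists each and include the one inside the gene. Of these, 1 was in the control list alone, with a score of 52.59, and 1 in the Wnt3a list alone, with a score of 63.53.

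SOX2, a single-exon gene on the plus strand that lies inside the long noncoding transcript SOX2-OT, had a strong peak over its 5' end in all 4 lists. The sequence just upstream of this start is shown because the peak over the start was found in every group. It is RefSeq's, on build GRCh38.p14, plus strand, chr3:181711675-181711924, the 250 bases before the annotated start, and capitals mark a GC box (GGGCGG) and a CCAAT box, both matched on the opposite strand. These coordinates are not on the files' build.
SOX2: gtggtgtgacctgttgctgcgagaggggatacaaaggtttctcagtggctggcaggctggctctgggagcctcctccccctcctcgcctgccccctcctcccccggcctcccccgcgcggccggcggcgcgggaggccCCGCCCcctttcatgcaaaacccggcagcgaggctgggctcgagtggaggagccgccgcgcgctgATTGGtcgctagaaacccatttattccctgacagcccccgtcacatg

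Of these bases 68.8% are G or C, against a median of 58.0% over 35116 promoter entries of the same length. A GC box is present in 42.6% of those entries and a CCAAT box in 32.0%, so both matches are common ones. None of the other 8 motifs searched had a match in this window, including the SOX core CATTGT, the octamer ATGCAAAT and the TCF/LEF motif CTTTGAT.

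The region over the SOX2 start was chr3:181427455-181430090. The best peak scored 602.02 after Activin A, 379.56 after Wnt3a, 482.2 after both ligands and 224.75 in control, and each covered the 5' end. Among all peaks it was 4145th of 75585 after Activin A, 224th of 21078 after Wnt3a, 2786th of 58382 after both ligands and 1492nd of 26223 in control. After Wnt3a it outranked both strong POU5F1 regions of the same list. After Activin A and after both ligands it ranked below both of them, and in control it ranked between them. These orders use the best peak of each region. In control the region beyond the POU5F1 3' end had 2 peaks, scoring 187.48 and 58.03, so the control order depends on that choice.

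By shared percentile the SOX2 start stood at 69.4 after Activin A, 98.4 after Wnt3a, 79.1 after both ligands and 88.8 in control. The difference from control was thus -19.3 points for Activin A, 9.6 for Wnt3a and -9.7 for both ligands. The combination differed from Wnt3a alone by -19.3 points, the same as Activin A from control, and from Activin A alone by 9.65 points, close to Wnt3a from control. Of all shared regions, 18.9% were as far or further down after Activin A, 31.5% were so after both ligands, and 34.2% were as far or further up after Wnt3a. Ranked among all peaks of each list, the start stood 0.205 points above control after Activin A and 0.917 points above it with both ligands, so both of these directions depend on which peaks are ranked.

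Just past the 3' end of SOX2, the region at chr3:181433462-181434230 began 3750 bases from the 5' end. In mouse, regulatory regions that drive Sox2 in stem cells and neural precursors lie on both sides of the gene close by. Whether any of them matches the region described here was not tested. This region scored 101.65 after Activin A and 53.9 after both ligands, against 110.37 in control, and the Wnt3a list had no peak in it. The score after both ligands sat just above the lowest of that list, 50.03. The region was the only one near these genes shared by control and a treated list in which control had the highest score. The median score of a whole list was 109 after Activin A and 94.3 after both ligands, against 75.1 in control.

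Ranked among the 21911 regions common to the Activin A and control lists, this region stood at percentile 10.2 after Activin A and 68.1 in control. The difference was -57.9 points, and 0.68% of those regions were as far or further down. Among the 21010 regions common to the combined and control lists it stood at 1.79 after both ligands and 66.8 in control, a difference of -65.0 points, and 0.267% were as far or further down. Among all peaks of each list it stood at 46.5 after Activin A, 9.32 after both ligands and 72.9 in control, so the size of the difference depends on which peaks are ranked. The next region downstream that control shared, chr3:181443995-181445281, also lacked a Wnt3a peak. It scored 94.25 after Activin A, above the 70.7 in control, and 53.13 with both ligands, below it and again just above the lowest score of the combined list, 50.03. In the same rankings it differed from control by -29.1 points after Activin A and -34.3 points after both ligands, and 10.4% of regions were as far or further down after Activin A and 7.33% after both ligands. Between these 2 regions lay a peak of the Activin A list alone, at chr3:181439962-181440323, with a score of 78.73. Other regions stood higher than control among the regions common to the lists compared. After Activin A the region upstream of SOX2 at chr3:181412654-181413621 differed by 28.5 points (11.4% of regions as far or further up) and the region upstream of POU5F1 at chr6:31148074-31148920 by 25.2 points (13.7%), and with both ligands they differed by 19.5 points (18.6%) and 8.13 points (32.1%). All these differences use the same control library. In it the regions upstream of SOX2 and POU5F1 scored 52.71 and 51.34, just above its lowest score of 50.03.

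Further downstream, the region at chr3:181473600-181475225, 43.9 to 45.5 kb from the SOX2 5' end, had a peak after each treatment and none in control. In mouse embryonic stem cells, Sox2 depends on a distal enhancer cluster downstream of the gene. No mouse positions were compared, so whether this region is its counterpart was not tested. The peak scored 318.21 after Activin A (percentile 84.2), 105.48 after Wnt3a (percentile 65.8) and 405.08 with both ligands (percentile 92.9). Its width was 752 bp for Activin A, 837 bp for Wnt3a and 1626 bp for both ligands. The nearest control peak was 28.6 kb away.

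Among regions absent from control, this one stood high. Of 35045 such regions after both ligands, 46 scored as high or higher, itself included, which is 0.131%. After Activin A 1258 of 51205 did (2.46%), and after Wnt3a 610 of 6546 did (9.32%). In lists cut to the 21078 best-scoring peaks each, it stayed present after Activin A and after both ligands. The Wnt3a list has that length uncut, and a cut cannot add a control peak, so those 2 lists could not change here. Genome-wide, 26.2% of the 17629 regions found in all 3 treated lists had no control peak, and of the 7 such regions near the 3 genes 2 had none, this one and the POU5F1 region at chr6:31105005-31105781. A second peak next to it, at chr3:181475570-181476254, was found after both ligands only, with a score of 71.14.

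Upstream of SOX2, the region at chr3:181412654-181413621 was in all 4 lists, with scores of 226.77 after Activin A, 72.46 after Wnt3a and 126.64 with both ligands, against 52.71 in control. Its shared percentile was 15.4 for Activin A, 21.3 for Wnt3a, 10.9 for both ligands and 4.25 for control. All 3 treatments thus stood above control, whose score sat just above the lowest of its list, 50.03. So near that limit, a region has little room to stand below control. The share of all shared regions as far or further up was 28.1% (Activin A), 25.3% (Wnt3a) and 34.6% (combined). The stretch between this region and the SOX2 start held 4 regions found only after Activin A and after both ligands. All lay within 12.5 kb of the 5' end, with scores of 59.38 to 125.3. Another such region, at chr3:181425541-181426165, scored 96.89 after Activin A and 96.4 after both ligands. Over the 3 windows, 9 regions (26.5%) were in the Activin A and combined lists only, beside 21.9% of all regions genome-wide. Wnt3a alone had a single peak in that stretch, at chr3:181422623-181423232, that no other list had, with a score of 69.6.

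NANOG, on the plus strand of chromosome 12, had a peak over its 5' end in the Activin A list only. The peak, at chr12:7941782-7942201, reached from 213 bases before to 206 bases after the annotated start, was 420 bp wide and scored 76.76, at percentile 29.8 of its list. The nearest peak to the NANOG 5' end was 70.7 kb away after Wnt3a, 30.4 kb after both ligands and 38.7 kb in control. No region near NANOG was found in more than 1 list. The others were at chr12:7984711-7985179 after Activin A (score 83.11), chr12:7910911-7911560 after both ligands (103.28) and chr12:7902597-7903296 in control (62.37).

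The Activin A peak at NANOG was weak, and in lists of 21078 peaks each, for which the lowest Activin A score was 195.09, no list had a peak over the NANOG start or over the POU5F1 start. The absence of a peak is uncertain at both genes for a further reason. The annotation lists 11 pseudogenes named for NANOG and 6 named for POU5F1, and whether reads matching several copies were kept is not given in the sources used here. Its part in these values was not tested. By their order in the annotation, the neighbours of NANOG are CLEC4C and NANOGNB upstream and SLC2A14 downstream.

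The sequence before the NANOG start is shown because it holds the composite SOX and octamer element through which OCT4 and SOX2 are known to act on this gene. It is RefSeq's, on build GRCh38.p14, plus strand, chr12:7789152-7789401, again the 250 bases before the annotated start, and capitals mark the element.
NANOG: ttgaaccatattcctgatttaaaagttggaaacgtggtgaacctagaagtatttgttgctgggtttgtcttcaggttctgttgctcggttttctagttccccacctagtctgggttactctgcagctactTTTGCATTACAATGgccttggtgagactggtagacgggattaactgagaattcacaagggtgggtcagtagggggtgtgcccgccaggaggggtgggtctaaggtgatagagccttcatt

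The element was searched as the SOX core CATTGT followed, after 1 free base, by ATGCAAA, and the match is on the opposite strand at bases 120 to 107 before the start. The SOX core alone, which the match contains, is held by 9.29% of promoter entries. The composite element was present in 2 of 35116 entries, NANOG and NRARP. The Activin A peak began 213 bases before the NANOG start on hg19. The starts come from different builds that were not aligned here, so whether the peak covers the element was not computed. G and C make up 47.6% of these bases, fewer than in the SOX2 promoter.

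The 5 regions found in all lists, 3 at POU5F1 and 2 at SOX2, were set against all 13016 such regions for rank and width. After Activin A, 1 was at least 10 points higher in shared percentile than in control (29.8% of all shared regions) and 1 at least 10 points lower (31.4%). After Wnt3a, 2 were higher (33.7%) and none lower (33.0%), and after both ligands none was higher (29.3%) and 1 lower (30.9%). The median difference over the 5 was -6.38 points after Activin A, 9.6 after Wnt3a and 0.991 with both ligands, beside -0.184, 0.102 and -0.273 over all shared regions. No difference in shared percentile reached 20 points, and the counts were near or below the genome-wide shares.

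**Figure D2:**
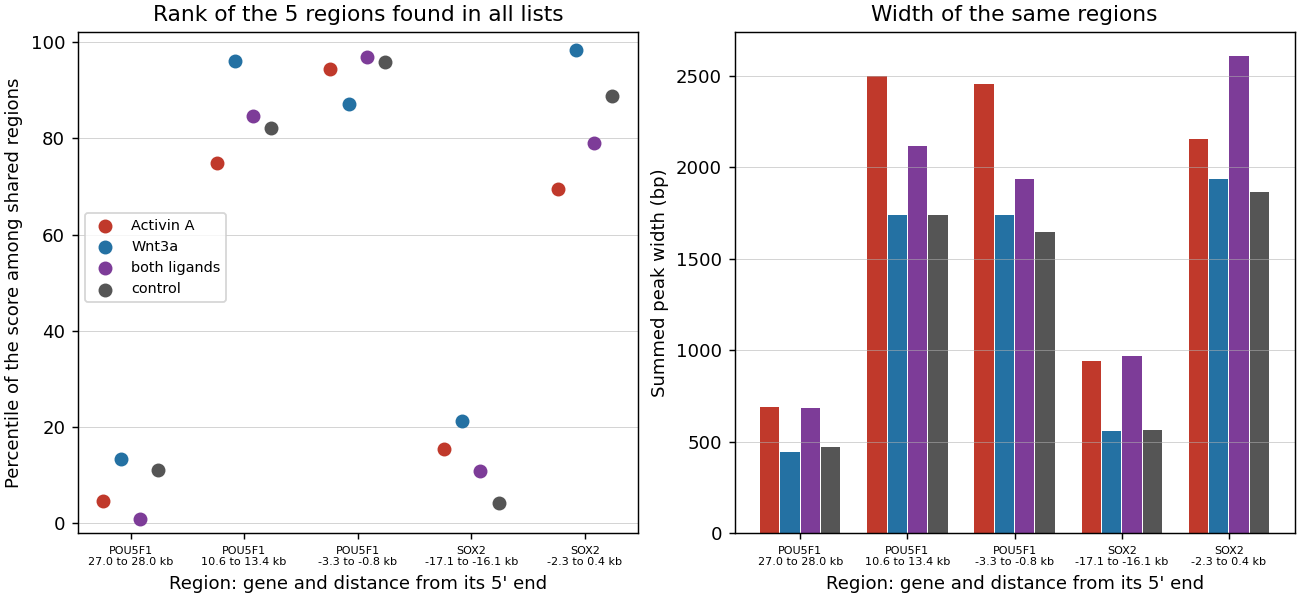
Left, percentile of the score among the 13016 shared regions for the 5 regions found in all lists, 1 point per library; right, their summed peak width in bp, 1 bar per library. Groups run Activin A, Wnt3a, both ligands, control within each region. Among the lists, Wnt3a is lowest at the region just upstream of POU5F1 (87.0) and highest at each of the other regions, including the SOX2 start (98.4). The Activin A and combined widths are the larger ones at each region.

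**Figure D3:**
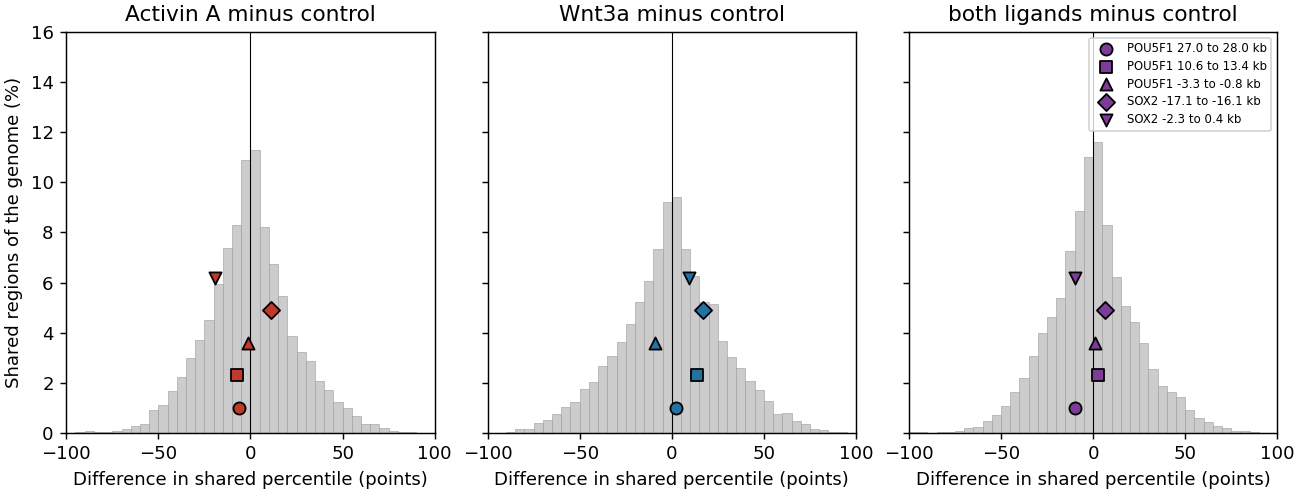
Difference in shared percentile between each treatment and control, in points, for all 13016 shared regions (grey bars, percent of regions per bin of 5 points) and for the 5 regions near POU5F1 and SOX2 (symbols, whose height carries no value). The symbols lie within the body of each distribution, from -19.3 to 11.1 points after Activin A, from -8.87 to 17.0 after Wnt3a and from -10.1 to 6.67 after both ligands.

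Width followed the same genome-wide pattern. The region upstream of POU5F1 spanned 2456 bp with Activin A, 1740 bp with Wnt3a and 1935 bp with both ligands, against 1643 bp in control. At the SOX2 start the summed width was 2152 bp with Activin A, 1934 bp with Wnt3a, 2607 bp with both ligands and 1867 bp in control. The median ratio to control over the 5 regions was 1.47 after Activin A, 0.998 after Wnt3a and 1.4 with both ligands, beside 1.39, 0.885 and 1.42 over all shared regions. A ratio of at least 1.5 was reached by 1 of the 5 after Activin A (42.0% of all shared regions) and by 1 after both ligands (43.3%), in both cases the SOX2 region at chr3:181412654-181413621, and by none after Wnt3a (6.38%). None of the 5 was narrower by that factor after Activin A (0.807%), Wnt3a (21.4%) or both ligands (0.791%).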

How the data were processed

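The values used are the score of each peak and its ends in the 4 peak lists deposited by the authors, 1 per library. The files have no header, and the MACS caller is known only from the peak names. The submitters' processing notes name CASAVA 1.8, Bowtie2 2.2.2 and build hg19. Depth, caller settings, duplicate removal and any shift of reads for the transposase are not given in the sources used here, and each can change which weak peaks are listed.

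Gene intervals were those of the rule, and strands are textbook knowledge. Peaks that overlapped by 1 base or touched were merged into regions over the 4 lists, and a region's best peak gave its score. Percentiles are mid-ranks. Ranks were taken within a list, among the 13016 regions in all 4 lists, and among regions in both lists compared, and a difference of 10 points or a width ratio of 1.5 was counted. Groups came from the labels. With 1 library per group no test was made. The regions given in full were those over each 5' end and up to 6 per window with the highest mean percentile; others were chosen after their values were seen. The genes, lists and measures were chosen with earlier results of these data known. Promoter sequences and gene names came from RefSeq tables on GRCh38.p14, in which 2 of the 3 genes had a promoter entry, and 10 motifs were searched on both strands. No genome or gene positions of hg19 were used, so neighbouring genes were named by order only, and the planned look at marker genes of other cell types was not run. The computations used Python 3.11.15, numpy 2.4.6, pandas 2.3.3 and scipy 1.17.1, hg19 chromosome lengths came from GenomeInfoDb 1.38.1, plots from matplotlib 3.10.9, and merging and ranking were tested on simulated data.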

Additional observations from a re-analysis of the deposited data

Results flagged for a closer look

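A pair of regions found in all lists went in opposite directions when Activin A was added without and with Wnt3a. The region upstream of POU5F1 stood 9.86 points higher in shared percentile with both ligands than with Wnt3a alone, while Activin A differed from control by -1.49 points, so that the effects differed by 11.3 points. The region upstream of SOX2 at chr3:181412654-181413621 differed by -10.4 points between both ligands and Wnt3a alone, and stood 11.1 points higher with Activin A than in control, so that the effects differed by -21.5 points. Each value is 1 library against another, the control also differed in medium, and neither difference was tested. The control score of the SOX2 region, 52.71, sat just above the lowest of its list, 50.03. Genome-wide, 29.8% of shared regions stood at least 10 points higher after Activin A than in control, and 31.4% at least 10 points lower. How many shared regions differ this much between the settings without and with Wnt3a was not counted.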

How the results depend on the processing

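Alternative counts, all planned, were made of regions absent from 1 of 2 lists, of starts, of rank and width differences and of covered bases. Of these 78, 37 stayed within 1.5 times the reported value and 41 did not. Counts of all regions per list are not among them. At equal length they were 5 after Activin A, 10 after Wnt3a, 4 after both ligands and 7 in control, in place of 25, 10, 24 and 10. Regions with no control peak, in the order Activin A, Wnt3a and both ligands, numbered 17, 5 and 16, and control regions missing after treatment 2, 5 and 2. With a window of 25 kb the first counts were 11, 2 and 10, and 1 control region was missing after Activin A and 1 after both ligands; with 100 kb, 8 were missing after Wnt3a and 4 after both. In lists of equal length 2, 6 and 1 regions had no control peak, so the order was reversed with Wnt3a highest, and 4, 3 and 4 control regions were missing. In the upper 50% of scores the counts were 5, 2 and 7, with 1, 1 and 1 missing; in the upper 25% they were 2, 0 and 1, with 0, 0 and 0 missing. Fewer peaks enter in these runs by construction, except from the Wnt3a list at equal length, which is uncut. At equal length 1 start had a peak with Activin A and 1 with both ligands, and the 3 windows held 8096 covered bases after Activin A and 7694 after both, in place of 20861 and 21908. The windows then held 9420 covered bases after Wnt3a, as before, and 7835 in control, in place of 9552. A limit of 5 points gave 3 shared regions lower after Activin A, 1 lower after Wnt3a, and 1 higher and 2 lower after both; with 20 points there were 0 in each case where the count had been above 0. Measured on the best peak, 2, 1 and 2 shared regions were at least 1.5 times wider after Activin A, Wnt3a and both, and 0 were 2-fold wider. Of 45 differences in percentile under other rankings, 27 moved beyond their counting interval and 7 changed sign, none of them when only regions of the compared lists were ranked. Among all peaks of each list, the SOX2 start stood 0.205 points above control after Activin A (-19.3 as reported) and 0.917 with both ligands (-9.7). After Activin A the POU5F1 regions starting 27000, 10649 and -3302 bases from the 5' end stood 34.9, 4.64 and 1.13 points above control (-6.38, -7.34 and -1.49 as reported), and after Wnt3a the first differed by -2.6 points (2.38). With summed scores the second differed by -6.39 points with both ligands (2.46) and by 5.1 points after Wnt3a (13.9). The cause was not tested. No paired analysis was possible because there is 1 library a group. Depth is unknown, which limits what the absence of a weak peak can show, and intervals over libraries cannot be given.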
